A study of Homo sapiens with 11 samples.

Results

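The GALNT genes encode polypeptide N-acetylgalactosaminyltransferases, and 10 of them (GALNT1, GALNT2, GALNT3, GALNT4, GALNT5, GALNT6, GALNT7, GALNT10, GALNT12 and GALNT14) were followed in PC-3 cells, an established human prostate cancer cell line, after transfection of small RNA duplexes. The members were all probes whose gene name on the array is one of these symbols, which gave 10 of 30484 gene names and 15 of 41000 probes. Of these, 14 probes of 9 genes passed the filter, a signal well above background on 6 or more of 11 arrays, which left 27118 probes, and the single probe of GALNT5 was not. The family was selected on the processed signals of these same arrays, each duplex against the mock of its set, so the differences from mock are given as a description without a test.

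RNA was taken at 24 h. The control, named mock, received the transfection reagent without a duplex (4 arrays). The other cells received the siRNA dsEcad-640, designed against the E-cadherin promoter, or a duplex of miR-302a, miR-373, miR-520c or miR-520f (1 array each) or of miR-372 (2 arrays). No group carries an added gene or a deletion, and no duplex with an unrelated seed was among the arrays used here. Each array was loaded with 150 ng of RNA pooled over 4 transfections, so the spread between single transfections cannot be seen. The title of the miR-520f array reads miR-530f while its other labels read miR-520f, and it was used as miR-520f. Arrays lie on 3 slides, called sets. In set 1, samples 1 to 4 are in turn mock, dsEcad-640, miR-302a and miR-372. Set 2 has mock as sample 8, with miR-373 (sample 7) and miR-520f (sample 6) beside it. On the slide of set 3 there are mock arrays as samples 9 and 11, one of miR-372 as sample 10 and one of miR-520c as sample 12.

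GALNT enzymes sit in the Golgi and transfer N-acetylgalactosamine from its UDP-sugar to serine or threonine, the first step of mucin-type O-glycosylation. Some members, such as GALNT1, GALNT2 and GALNT3, act on bare peptides, whereas GALNT4, GALNT7, GALNT10 and GALNT12 prefer peptides that already carry a sugar. GALNT3 is known for glycosylating the phosphate hormone FGF23, and its closest relative in sequence is GALNT6.

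The miRNAs are shown because the position of their shared bases separates miR-520f from the rest. Capitals mark the seed, bases 2 to 8 from the 5′ end, in the mature sequences of RefSeq (GRCh38.p14).
hsa-miR-302a-3p: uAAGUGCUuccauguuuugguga
hsa-miR-372-3p: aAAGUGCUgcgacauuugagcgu
hsa-miR-373-3p: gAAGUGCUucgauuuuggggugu
hsa-miR-520c-3p: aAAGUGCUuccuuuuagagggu
hsa-miR-520f-3p: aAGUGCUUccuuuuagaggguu

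The bases AAGUGCU fill positions 2 to 8 of the first 4 miRNAs and positions 1 to 7 of miR-520f. dsEcad-640 has the same seed as the first 4, and these 5 are called the common-seed duplexes (6 arrays). The site that pairs with their seed reads AGCACTT, and the site for the seed of miR-520f reads AAGCACT. miR-302a lies on the minus strand at chr4:112648186-112648208, and the other miRNAs lie on the plus strand of chromosome 19, at chr19:53787931-53787953 (miR-372), chr19:53788748-53788770 (miR-373), chr19:53707506-53707527 (miR-520c) and chr19:53682213-53682234 (miR-520f). Among the genes that the study listed as decreased, a choice made on these same arrays, a GALNT3 probe was listed with both sites and a GALNT4 probe with AGCACTT alone.

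Signals are log2 values from which the array's own 75th percentile was subtracted, and a difference is the log2 signal minus the mean of the mock arrays of the same set. Between 54.3% and 72.7% of probes were well above background on 10 arrays, and 88.1% on miR-372 sample 4. The 14673 probes that were not well above background on mock sample 1 had a median difference of 2.47 on miR-372 sample 4, so high values of dim probes on that array are given beside this shift. The median pools dim probes of all signal levels and is not matched to the level of a given probe. Set 3 differed from sets 1 and 2 at 14228 of 26967 probes. Of 8 probes of keratins and EPCAM, markers of epithelial cells, all were well above background on 11 of 11 arrays, and 5 rose with the common-seed duplexes (limma, adjusted p below 0.05). Of 6 probes of endothelial and leukocyte genes, CDH5 was well above background on 0 arrays and both PTPRC probes on 1, whereas PECAM1 and 1 CD3E probe were on 11 and the other CD3E probe on 7, and 0 were called. Their part in the results was not tested.

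GALNT3 had the largest common difference of the members, at 1 of its 2 probes. Probe A_24_P114249 (chr2:166312662-166312721, hg18) had log2 signals of -0.03 on mock sample 1, 0.02 on mock sample 8, 0.40 on mock sample 9 and 0.79 on mock sample 11. With the common-seed duplexes the signals were -1.87 (dsEcad-640), -1.88 (miR-302a), -1.85 (miR-372 sample 4), -1.97 (miR-373), -1.11 (miR-372 sample 10) and -0.76 (miR-520c), and with miR-520f -2.46. Every duplex array lay below every mock array, and the share of all probes that do so was not counted. By the looser measure of all 6 common-seed arrays below the mock mean of their set, 11.6% of all probes were. The differences from the set's mock ran from -1.99 under miR-373 to -1.35 under miR-520c, with a mean of -1.76 ± 0.22 (SD, n = 6 arrays), or 29.5% of mock. The 2 miR-372 arrays, on separate slides, had differences of -1.83 and -1.70. Under miR-520f the difference was -2.47, a fold of 0.18, which was 0.71 lower on the log2 scale than the mean of the common-seed arrays and 0.48 lower than miR-373 on the same slide. A difference of -2 or lower under miR-520f was found at 0.236% of all probes. This gap to the common-seed mean shrank to -0.27 with normexp background correction.

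**Figure D1:**
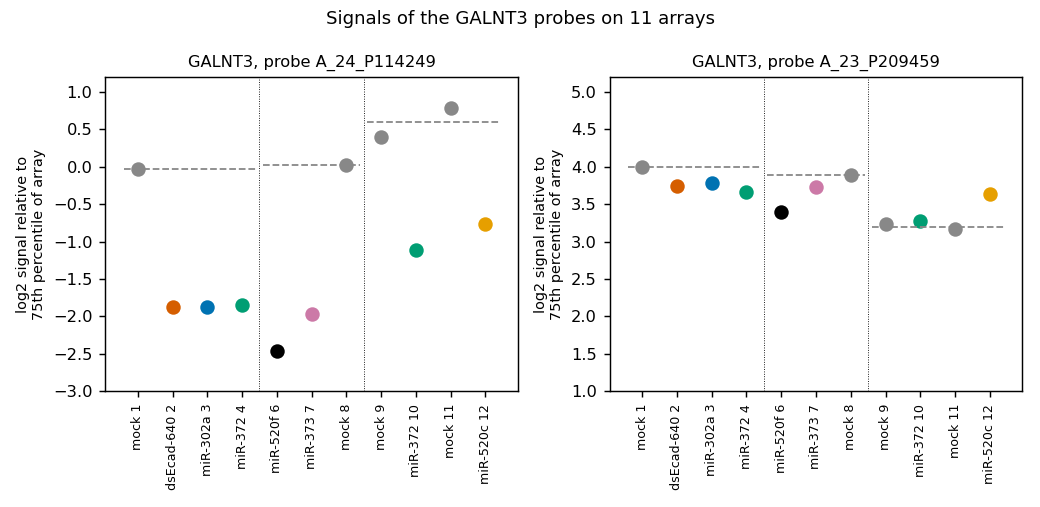
Log2 signals of the 2 GALNT3 probes on 11 arrays (x axis, name and sample number), with dotted lines between sets and dashed lines at the mock mean of each set. On the left the differences of the duplex arrays from the mock mean lie between -2.47 and -1.35, whereas on the right they stay between -0.50 and 0.43.

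The other GALNT3 probe, A_23_P209459, did not share this pattern. It lies at chr2:166311800-166311859, with its start 862 bases from that of A_24_P114249, and both probes carry the same RefSeq transcript accession. Its signals on mock samples 1, 8, 9 and 11 were 4.00, 3.89, 3.23 and 3.17. With the common-seed duplexes they ran from 3.27 to 3.79, and with miR-520f the signal was 3.39. The differences were -0.27, -0.21, -0.33, -0.15, 0.07 and 0.43 in the order dsEcad-640, miR-302a, miR-372 sample 4, miR-373, miR-372 sample 10 and miR-520c, with a mean of -0.08 ± 0.29 (SD, n = 6), and -0.50 with miR-520f. Arrays of sets 1 and 2 were thus slightly below their mock and those of set 3 above it. Which transcripts each probe measures was not tested, so the statement on GALNT3 holds for 1 probe of 2.

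Among the members that act on bare peptides, GALNT1, a widely expressed enzyme, was higher with every duplex. Probe A_23_P306105 had signals of -0.38, -0.44, -0.05 and 0.06 on mock samples 1, 8, 9 and 11. With the common-seed duplexes the signals ran from 0.06 to 0.69, and with miR-520f the signal was 0.45. Mock sample 11 and miR-372 sample 4 met at 0.06, so the groups touched across sets, but within each set all duplex arrays were above mock. The differences ran from 0.44 to 0.77 with a mean of 0.58 ± 0.12 (SD, n = 6), a fold of 1.49, and the difference under miR-520f was 0.89.

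GALNT2, the other broadly expressed member, showed small differences. Its probe A_24_P353794 had signals of 1.76, 1.85, 0.74 and 0.11 on mock samples 1, 8, 9 and 11, a range of 1.74. Differences from the set's mock ran from 0.14 to 0.41, with a mean of 0.22 ± 0.10 (SD, n = 6), and the value under miR-520f was 0.14. The direction was shared, but in set 3 it depended on the mock array, since miR-520c was 0.10 below mock sample 9 (a difference of -0.10) and 0.52 above mock sample 11.

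GALNT6 stood apart with dsEcad-640. Probe A_23_P204133 (chr12:50034173-50034232, hg18) had signals of 0.83, 0.90, 0.03 and -0.07 on mock samples 1, 8, 9 and 11. Its signal was -2.24 with dsEcad-640, against 0.73, 0.60, 0.75, 0.22 and 0.23 with miR-302a, miR-372 sample 4, miR-373, miR-372 sample 10 and miR-520c, and 0.36 with miR-520f. The dsEcad-640 array was the lowest of the 11, and the others lay near the mock of their set. The difference was -3.07 with dsEcad-640 and between -0.23 and 0.25 on the other 5 common-seed arrays. With miR-520f it was -0.55. On the dsEcad-640 array 8 probes, 0.0295% of those measured, had a difference of -3 or lower. There is 1 dsEcad-640 array, and the difference has no replicate.

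GALNT14, linked in other cells to the glycosylation of death receptors, had mock arrays far apart. Probe A_23_P67847 had signals of -5.19, -4.91, -6.60 and -0.05 on mock samples 1, 8, 9 and 11, and was well above background on samples 8 and 11 of these. Mock samples 9 and 11, on one slide, were 6.55 apart on the log2 scale, and 10 probes, 0.0369%, were apart by 3 or more between these arrays. At 7 of these 10 probes, GALNT14 included, miR-372 sample 10 and miR-520c sample 12 were apart the same way. By 1 or more this held at 5 of them, and the share over all probes was not counted. Signals with duplexes were -5.59 (dsEcad-640), -3.37 (miR-302a), -2.95 (miR-372 sample 4), -5.31 (miR-373), -6.07 (miR-372 sample 10) and 0.60 (miR-520c), and -6.30 with miR-520f. The highest signals were those of mock sample 11 and miR-520c sample 12. Against mock sample 9 the difference of miR-520c was 7.20 and against mock sample 11 it was 0.65, and for miR-372 sample 10 the values were 0.53 and -6.02. In set 1 the probe was at least 3.53-fold higher with miR-302a and at least 4.71-fold higher with miR-372 sample 4 than on mock sample 1, where it was not well above background. The difference on miR-372 sample 4 was 2.24, on an array where dim probes of all levels shifted by a median of 2.47. Here "at least" means that the dim array was set to the lowest signal well above background on it, or to the probe's own signal if that was higher. No common direction can be given for GALNT14.

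GALNT5 was well above background only on miR-372 sample 4, with a signal of -4.08 against -7.33 on mock sample 1, at least 2.31-fold higher. This is the array on which dim probes were raised as a whole, by a median of 2.47 over all levels, and the difference of GALNT5 there was 3.25. On the miR-373 array GALNT5 had a signal of -4.39, a difference of 3.14, but was not well above background. It was below mock on the other 4 common-seed arrays.

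**Figure D2:**
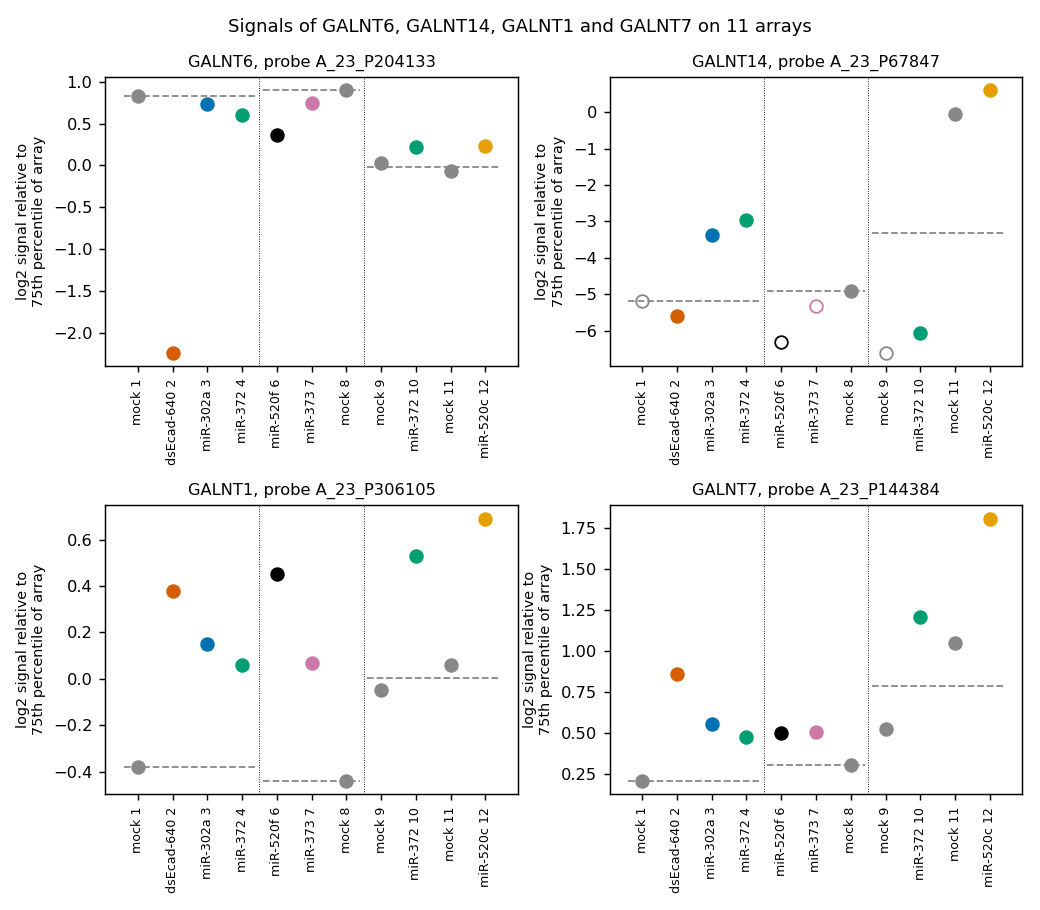
Log2 signals of GALNT6, GALNT14, GALNT1 and GALNT7 on 11 arrays (x axis, name and sample number); open circles mark arrays where the probe was not well above background, dotted lines separate sets and dashed lines give the mock mean of each set. GALNT6 is low at -2.24 with dsEcad-640, and GALNT14 is high on mock sample 11 (-0.05) and miR-520c (0.60).

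Of the members that prefer glycosylated peptides, GALNT7 was higher than mock on all 6 common-seed arrays, and GALNT4 was lower on all 6 at 1 of its 2 probes. GALNT7 probe A_23_P144384 had signals of 0.21, 0.31, 0.53 and 1.05 on mock samples 1, 8, 9 and 11, and from 0.48 to 1.81 with the common-seed duplexes. The groups overlapped across sets, and the mean difference was 0.49 ± 0.31 (SD, n = 6), from 0.20 with miR-373 to 1.03 with miR-520c. With miR-520f the difference was 0.20.

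GALNT4 was dim at both probes. Probe A_24_P942370, the one on the study's list, had signals of -3.17, -3.20, -2.53 and -2.39 on mock samples 1, 8, 9 and 11. Its differences were -0.79 (dsEcad-640), -0.41 (miR-302a), -0.04 (miR-372 sample 4), -0.55 (miR-373), -0.23 (miR-372 sample 10) and -0.48 (miR-520c), with a mean of -0.41 ± 0.26 (SD, n = 6), and -0.69 with miR-520f. All were below the mock of their set, by little on both miR-372 arrays. The second probe, A_23_P413576, was well above background on 6 arrays, and its differences ran from -1.47 to 1.40. The value of 1.40, at least 2.64-fold higher, came from miR-372 sample 4, where dim probes of all levels shifted by a median of 2.47. The other 5 common-seed arrays were below mock.

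GALNT10 has 4 probes, which did not move together. Probe A_23_P19102, whose accession is a cDNA clone and was the 1 of 15 without the same symbol in RefSeq, had signals of 1.13, 1.17, 1.40 and 2.08 on mock samples 1, 8, 9 and 11, and from 0.58 to 1.54 with the common-seed duplexes. Its mean difference was -0.49 ± 0.19 (SD, n = 6), with each array below the mock mean of its set, although miR-520c was 0.14 above mock sample 9. The 3 probes of the RefSeq transcript had mean differences of -0.19 (A_23_P7706), -0.01 (A_24_P910923) and 0.22 (A_24_P161964), with array values on both sides of 0. A_23_P7706 was below mock on 5 of 6 common-seed arrays, by less than the clone's probe, and the other 2 were on either side of it on 3 arrays each.

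GALNT12, a gene studied in colorectal cancer, had signals of -2.51, -2.33, -3.22 and -3.64 on mock samples 1, 8, 9 and 11. Its differences ran from -0.24 with miR-373 to 0.43 with miR-372 sample 10, with a mean of 0.19 ± 0.24 (SD, n = 6), smaller than the spread between arrays. With miR-520f the difference was -0.22, and both arrays of set 2 were below their mock.

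**Figure D3:**
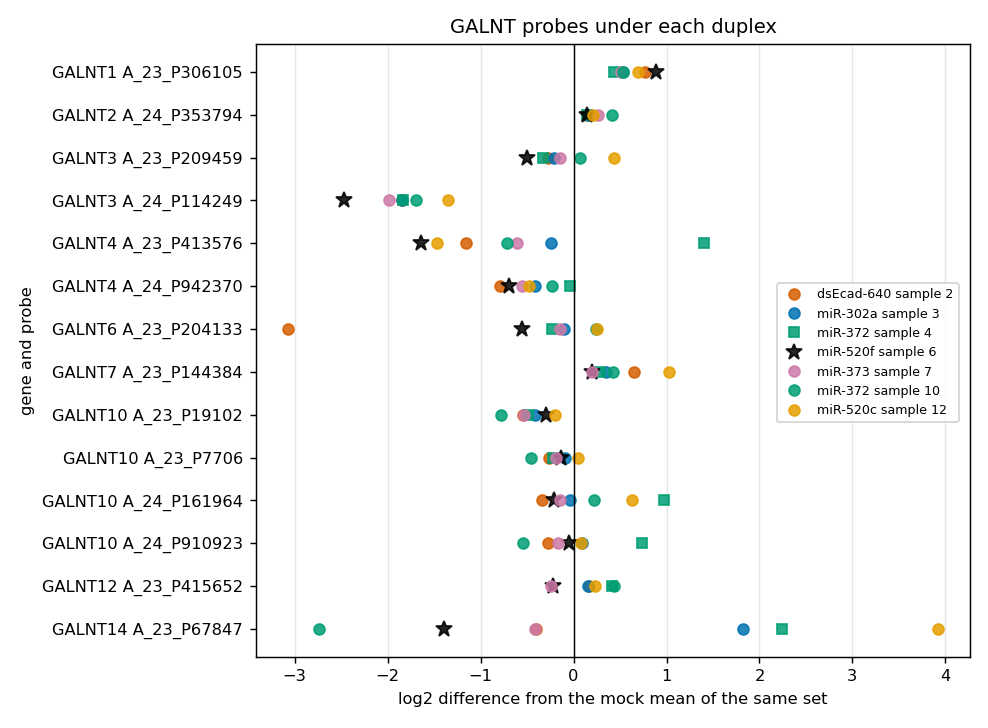
Log2 difference of each of 14 GALNT probes (y axis) from the mock mean of the same set (x axis), 1 symbol per duplex array; squares mark miR-372 sample 4 and stars miR-520f. All 7 arrays lie left of 0 for GALNT3 A_24_P114249 and right of 0 for GALNT1, and GALNT14 runs from -2.74 to 3.92.

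Over the family, 3 probes (GALNT3 A_24_P114249, GALNT4 A_24_P942370 and GALNT10 A_23_P19102) were below mock on all 6 common-seed arrays, where 11.6% of all probes were, and 3 (GALNT1, GALNT2 and GALNT7) were above it on all 6, where 16.5% were. The remaining 8 probes were mixed. The median of the mean differences was -0.04, against 0.04 over all probes past the filter. In the limma fit with the set as a block, 1 member probe was called lower (GALNT3 A_24_P114249, against 2.05% of all probes) and 1 higher (GALNT1, against 2.14%). These calls come from the values by which the genes were chosen and are listed as a description. The GALNT3 probe was the 14th by size among 556 lower calls. With miR-520f the median difference of the members was -0.26, against -0.10 over all probes. GALNT4 A_23_P413576, GALNT10 A_24_P161964 and GALNT14 were not well above background on that array.

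Single duplexes differed in how many members passed a difference of 1. With dsEcad-640, 3 member probes were at -1 or lower (GALNT3, GALNT4 A_23_P413576 and GALNT6), where 2.62% of all probes were. With miR-520f there were also 3 (GALNT3, GALNT4 A_23_P413576 and GALNT14), where 6.03% were, and of these GALNT3 alone was well above background on that array. The GALNT4 probe was not well above background on dsEcad-640 or its mock array either, so its low values there are bounded by the background. With miR-302a, GALNT3 was at -1 or lower (1.37% of all probes) and GALNT14 at 1 or higher (0.915%). With miR-373, GALNT3 was at -1 or lower (3.21%) and 0 members were at 1 or higher (1.47%), and likewise 0 were at 1 or higher with dsEcad-640 (1.27%) and miR-520f (2.11%). On miR-372 sample 4, GALNT3 was at -1 or lower (0.538%), and the dim probes of GALNT4 (A_23_P413576) and GALNT14 were at 1 or higher, as were 16.5% of all probes on that array. On miR-372 sample 10, GALNT3 and GALNT14 were at -1 or lower (1.16%) and 0 members at 1 or higher (0.965%). With miR-520c, GALNT3 and GALNT4 A_23_P413576 were at -1 or lower (3.55%), and GALNT7 and GALNT14 at 1 or higher (3.94%). GALNT3 A_24_P114249 was thus the member past this size on every duplex array. A fit with a mean per duplex rests on 1 array for each duplex except miR-372 and has 2 residual degrees of freedom. Single duplexes are therefore described by their differences alone.

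The other GALNT family genes on the array were 9, with 12 probes, of which 5 probes of 4 genes passed the filter and 0 were called. GALNT11, another initiating enzyme, was the nearest, with a log2 fold change of -0.51 ± 0.12 (SE) and an adjusted p of 0.052 at probe A_23_P8412 (limma), and it was lower on 6 of 6 common-seed arrays. Its other probe, A_23_P8416, was also lower on 6 of 6, with a log2 fold change of -0.48 ± 0.27 (SE, adjusted p = 0.362, limma).

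Genes that act before and after the GALNT step were compared between the 6 common-seed and 4 mock arrays with limma, with the set as a block and adjustment over 27118 probes. Of 29 probes for O-glycan core and extension enzymes, 1 fell and 0 rose, and the median log2 fold change was 0.07, against 0.03 over all probes. The shares over all probes, 2.05% fallen and 2.14% risen, are the background for this list and the next 3, and 1 call in a list of this size is near them. The probe that fell was A_23_P151915 of GCNT3, the enzyme that branches mucin cores. Its signals were -1.23, -1.28, -1.45 and -0.48 on mock samples 1, 8, 9 and 11 and from -3.06 to -1.83 on the common-seed arrays. The log2 fold change was -1.65 ± 0.28 (SE, adjusted p = 0.023, limma). With miR-520f the difference was -0.55. The second GCNT3 probe, A_23_P420209, was well above background on 6 arrays, with differences from -2.43 to 1.73 (5 arrays below mock and 1 above), and was not called (adjusted p = 0.253, limma), and for the mean of both probes the adjusted p was 0.0971.

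Of 16 probes for nucleotide sugar supply, 2 fell and 0 rose (median -0.02). SLC35D1, a transporter of UDP-glucuronic acid and UDP-N-acetylgalactosamine, had at probe A_24_P208091 a log2 fold change of -0.91 ± 0.11 (SE, adjusted p = 0.00747, limma). It was lower on 6 of 6 arrays, by differences from -1.12 to -0.77, and its difference with miR-520f was -0.60. The second SLC35D1 probe, A_23_P357929, had a log2 fold change of -0.30 and was not called (adjusted p = 0.245, limma), with 4 arrays below mock and 2 above. GALK2, an N-acetylgalactosamine kinase, had -0.65 ± 0.11 (SE, adjusted p = 0.0261, limma), with a difference of -0.19 under miR-520f.

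Of 24 probes for mucins and other O-glycosylated proteins, 1 fell and 0 rose (median -0.06). This was probe A_24_P218265 of TNFRSF10B, the death receptor DR5, with a log2 fold change of -0.79 ± 0.10 (SE, adjusted p = 0.00949, limma), lower on 6 of 6 arrays, and a difference of -0.19 with miR-520f. The second TNFRSF10B probe, A_23_P169030, had a log2 fold change of -0.27 and was not called (adjusted p = 0.269, limma), with 5 arrays below mock and 1 above. Of 19 probes for N-glycan processing, a separate pathway, 0 fell and 1 rose (median 0.11). MGAT1, which opens the way to complex N-glycans, had a log2 fold change of 0.50 ± 0.10 (SE, adjusted p = 0.0416, limma). The calls of GCNT3, GALK2 and MGAT1 were lost in 9, 7 and 11 of 16 alternatives, with adjusted p up to 0.104, 0.106 and 0.24, and those of SLC35D1 and TNFRSF10B in 2 and 1 of 16, with adjusted p up to 0.0822 and 0.0879 (limma). Without mock sample 1, whose omission also takes the duplex arrays of set 1 out of the difference, the lists held 0 probes that fell.

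**Figure D4:**
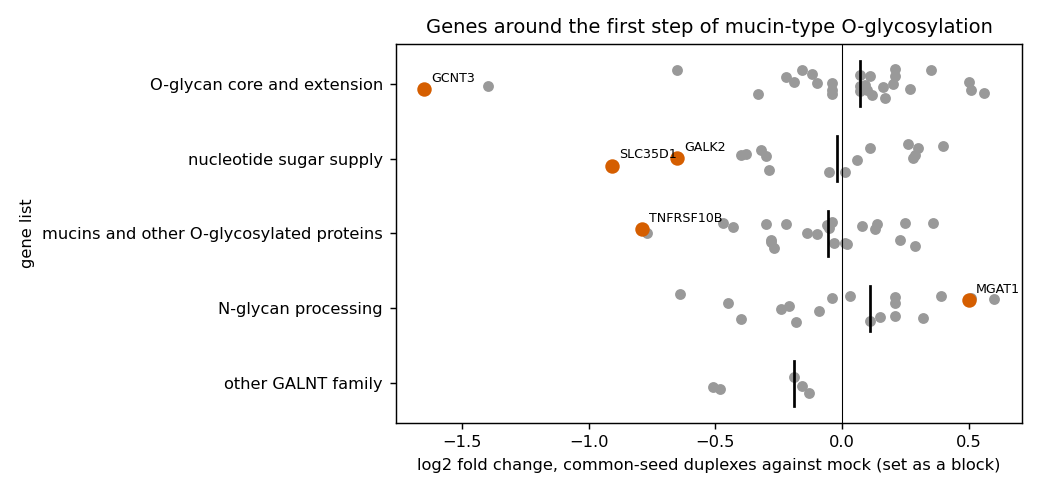
Log2 fold change of the common-seed duplexes against mock with the set as a block (x axis) for probes of 5 gene lists (y axis), with a black line at the median of each list and named points for adjusted p below 0.05. The called probes of GCNT3, SLC35D1, TNFRSF10B and GALK2 lie below 0 and that of MGAT1 above it, and the medians stay between -0.19 and 0.11.

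The genes whose differences over 11 arrays were most like GALNT3 (mean of its 2 probes, with mock samples 1 and 8 at 0 by construction) were PARC, TMEM187, MDFIC, ATG16L2 and ZNF484, with Pearson r from 0.976 to 0.989. The arrays share slides and mock samples, so r is a description. With A_24_P114249 alone, a choice made after seeing the data, 1 of these 5 was again among the first 5, and over the 7 duplex arrays without mock 0 were.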

How the data were processed

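Per the file headers, the authors deposited the scanner output of Agilent Feature Extraction 10.5.1.1, whose processed signal is an intensity with the background subtracted and trends removed within each array, not scaled between arrays. Log2 values were computed from the deposited intensities, and each array's 75th percentile was subtracted. An outlier mark removed 52 to 209 of 43376 spots per array, and spots with one probe name were averaged. A table of log2 values that the authors deposited for the same arrays, by a normalization not given in the sources used here, was an alternative within sets. Probes well above background on at least 6 of 11 arrays were tested in R 4.3.3 with limma 3.58.1 and Benjamini-Hochberg adjustment, with the set as a block. Python 3.11.15, numpy 2.4.6 and pandas 2.3.3 were used for the rest. The test was also run on simulated data, but the outcome of that run is not given here. The calls therefore draw no support from that run. Nothing in the sources says that mock arrays come from separate cultures, so p-values measure the spread between arrays, whose number limits the precision.

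The members and lists were chosen with earlier results of these data known. Named genes are all members, other GALNT genes, probes of the pathway lists past an adjusted p of 0.05, and the 5 genes most like GALNT3. Alternatives were normexp with an offset of 50, quantile normalization, no set block, other filters, the mean of a gene's probes, either mock array of set 3 alone, and each mock or common-seed array left out. Leaving out mock sample 8 or miR-373 gives one and the same fit, since set 2 then has a single array of the comparison. Array coordinates are those of hg18.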

Additional observations from a re-analysis of the deposited data

Results flagged for a closer look

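GALNT6 (probe A_23_P204133) with dsEcad-640 had a log2 difference of -3.07 from mock, a sample far from the other 5 common-seed arrays, which lay between -0.23 and 0.25. The family was selected on these differences, so the gap is a description and not a test. Of 30 groups of values examined for such a gap, 1 had it, where chance gives about 1 in 20. Its signal was well above background on each of the 11 arrays, and its spot had no outlier mark.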

How the results depend on the processing

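The members held 1 lower call under each of the 16 alternatives fitted, 15 of them at GALNT3 A_24_P114249 and the other among the means of a gene's probes. The genes were chosen by these same values, so that the call stays is a description and not support for it. The mean difference of A_24_P114249 ranged from -1.87 to -1.56. The higher call of GALNT1 was lost (0 calls) without the set block, without a filter on dim probes, and without mock sample 1, 8, 9 or 11, miR-373 or miR-372 sample 10 (range 0 to 1). Over all probes, 556 lower and 580 higher calls became 214 and 174 without the set block, 98 and 117 without a filter, 968 and 1125 with a filter on all 11 arrays, and 14 to 1124 and 10 to 795 with 1 array left out. The lowest counts came without mock sample 1, the only mock of set 1. This omission also takes the duplex arrays of set 1 out of the difference, so it is more than the loss of 1 array. The highest counts came without miR-372 sample 4, and every other omission lowered both counts by over 1.5 times. Pathway probes that fell, 4, became 2 without a filter, 7 with a filter on all 11 arrays and 0 to 9 with 1 array left out (0 without mock sample 1, 9 without miR-372 sample 4), and the 1 that rose became 0 without the set block, 0 without a filter, 2 with a filter on all 11 arrays and 0 to 2 with 1 array left out. The difference of GALNT3 A_24_P114249 under miR-520f, -2.47, was -1.83 with normexp and -2.75 without the set block, and its gap to the common-seed mean, -0.71, was -0.27 with normexp. GALNT6 under dsEcad-640 was -2.50 with normexp. The cause was not tested. The mean difference of GALNT14, 0.74, was -0.35 without mock sample 9 and 1.83 without mock sample 11. By replicate number, no paired analysis was possible because the groups share none, and the comparison within slides is the set block, whose counts with and without it are given above.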
